A study of Triticum aestivum with 12 samples.

Results

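The low-K side of split wheat roots (Sp. LK) was compared with the normal-K side (Sp. NK), which asks how the transcripts of a root side differ with its own K supply while both sides feed 1 shoot. The arrays were chosen by their titles, and the comparison holds 6 of the 12 arrays of the series, 3 of each side. All were roots of the genotype Tongzhou916, a wheat described by the study as tolerant of low K. Seedlings 3 weeks old, raised on normal K, were moved for 5 days to boxes in which the root system was divided between 2 compartments. The compartment of Sp. LK held 0.005 mmol/L K2SO4 and that of Sp. NK 1.0 mmol/L, and the rest of the same root system stood in the opposite supply. The other 6 arrays were roots with low K in both compartments (C. LK, 3 arrays) and with normal K in both (C. NK, 3 arrays). Each array was described as a biological replicate that pooled several plants, so the spread between single plants was not measured. The sources do not say whether a Sp. LK and a Sp. NK array of the same number came from the same plants.

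Potassium is the main inorganic cation of plant cells, where it sets osmotic pressure, balances charge and activates enzymes. Roots take it up through channels and through high-affinity transporters, and the plasma membrane proton pump supplies the voltage and the proton gradient that drive uptake. In Arabidopsis, low K raises the transcript of the high-affinity transporter HAK5, and both the local supply and signals from the shoot are known to act on nutrient uptake in split roots.

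Root RNA was measured on the Affymetrix Wheat Genome Array, on which each probe set reads a transcript or several that resemble each other. The deposited values are log2 signals scaled by the authors to a common level on each array, so every difference is relative to the total signal of the array. Values per array are given here as linear normalized signals, and differences as log2 (Sp. LK minus Sp. NK), with the 95% interval of the limma fit in parentheses. Without array controls, 61115 probe sets were tested, and the 26541 with a mean log2 signal of 7 or more over the 12 arrays are called brighter. Between 30.4% and 33.2% of the probe sets had a signal under 32 on the 6 arrays. RNA quality overlapped between the sides: the 3' probes of sucrose synthase exceeded its 5' probes by 3.81 to 4.30 in Sp. LK and 3.71 to 4.20 in Sp. NK on the log2 scale. Of the root markers, DMAS1, the deoxymugineic acid synthase of iron uptake, was bright, while the only probe set of the malate channel ALMT1 had a mean log2 signal of 5.49. Of 36 probe sets of 6 photosynthesis genes, 27 had a mean signal under 32. Their summed signal was 6882 to 7775 in Sp. LK and 7351 to 10007 in Sp. NK, and 6 of them were brighter. Of 20 probe sets of 10 seed protein genes, 12 had a mean signal under 32 and 4 were brighter. Their summed signal was 7498 to 9034 in Sp. LK and 7120 to 9317 in Sp. NK. A probe set of the seed gene LOC100125692 had a mean log2 signal of 12.45.

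Few probe sets passed the study thresholds between both sides, and none passed a correction for the number of probe sets. The study thresholds were a fold change above 1.5 together with a p under 0.05 that was not adjusted. By them, 981 probe sets (1.61%) were higher and 696 (1.14%) were lower in Sp. LK than in Sp. NK. Among the brighter probe sets, 100 (0.377%) were higher and 75 (0.283%) were lower, 175 in all (0.659%). The excess of higher ones depended on the setting: after quantile normalization 854 were higher and 850 lower, 76 and 86 of the brighter, and without Sp. LK replicate 2 737 were higher and 962 lower. The other 881 higher (2.55% of the dimmer probe sets) and 621 lower ones (1.80%) were dim, where a small difference in signal gives a large fold change. After Benjamini-Hochberg adjustment limma called 0 probe sets (0%), and the lowest adjusted p was 1.000. An unadjusted p under 0.05 was found for 1907 probe sets (3.12%), and for 405 of the brighter ones (1.53%). Both shares were below the share that a threshold of 0.05 alone would give if no probe set differed. The methods' t-test and the fit with only these 6 arrays also called 0 after adjustment.

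**Figure D1:**
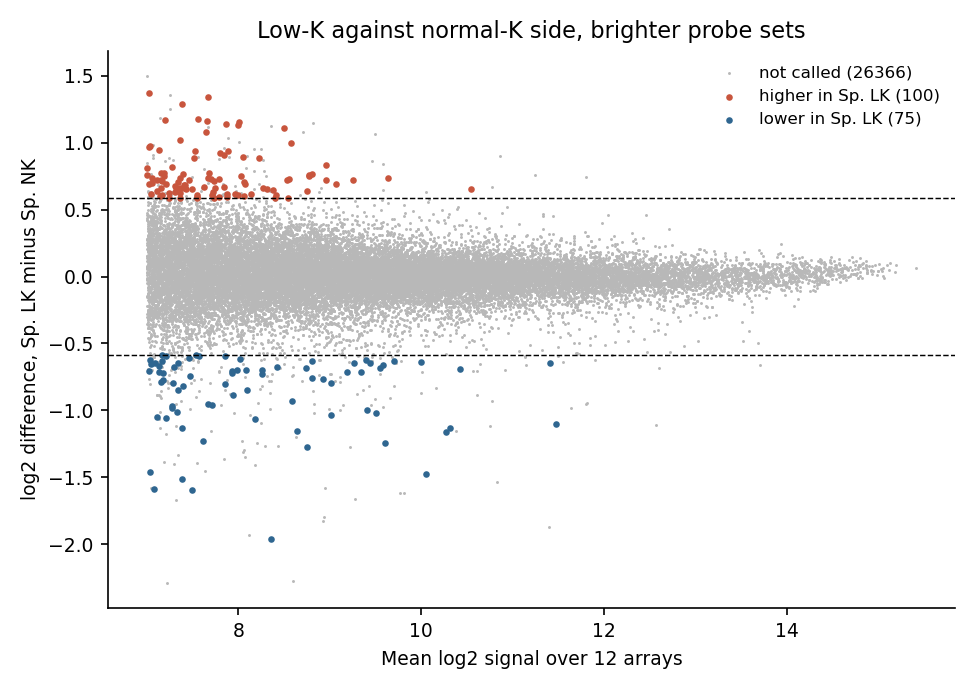
Difference between the sides against brightness for the 26541 brighter probe sets: the x axis is the mean log2 signal over 12 arrays and the y axis the log2 difference Sp. LK minus Sp. NK. Each point is 1 probe set, the dashed lines mark a 1.5-fold change, and the 100 higher (red) and 75 lower (blue) probe sets at the study thresholds lie mostly at the dim end.

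The arrays of the 2 sides were as alike as arrays of 1 side. Over the brighter probe sets, the 9 pairs of a Sp. LK and a Sp. NK array correlated at r of 0.954 to 0.978 (median 0.975). The 3 pairs within Sp. LK correlated at 0.964 to 0.970 and the 3 pairs within Sp. NK at 0.968 to 0.974. Each r is taken over probe sets, and these are no replicates of each other. The number of arrays limits what could be seen: the median 95% interval of a brighter probe set reached 0.401 to each side of its difference on the log2 scale. For 16363 brighter probe sets (61.7%) the whole interval lay within a 1.5-fold change, and for 24540 (92.5%) within a 2-fold change. For the remaining probe sets a change of that size was not detectable as present or absent with 3 arrays a side.

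The differences between sides were also narrower than those between uniformly supplied roots. The SD of the log2 difference over the brighter probe sets was 0.202 for Sp. LK against Sp. NK and 0.260 for C. LK against C. NK. A change above 1.5-fold, with no test, was seen in 464 brighter probe sets (1.75%) between the sides and in 925 (3.49%) between the uniform supplies. In 1432 brighter probe sets (5.40%) every array of one side lay beyond every array of the other, against 2583 (9.73%) under uniform supply. At the study thresholds 245 brighter probe sets were higher (0.923%) and 210 lower (0.791%) in C. LK vs. C. NK. These are descriptions of 2 sets of 6 arrays that share none, and the difference in width was not tested.

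**Figure D2:**
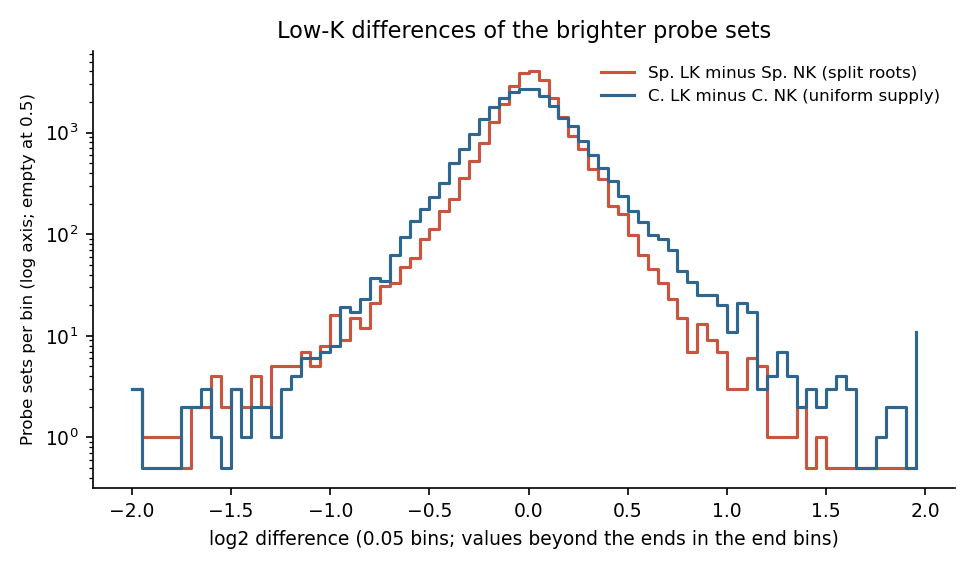
Number of brighter probe sets in each 0.05-wide bin of the log2 difference (log axis), for the sides of split roots (red) and for uniform supply (blue). The split-root curve is the narrower one, with an SD of 0.202 against 0.260.

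Neither of the probe sets of K transport passed the study thresholds between the sides. The study's list of candidate genes places 2 probe sets under potassium ion transport. It took them as lower in Sp. LK against C. LK, a choice made on the Sp. LK and C. LK arrays. The choice itself favours a larger difference under uniform supply than between the sides, so the values under uniform supply are given as a description. The first, that of LOC543226, is shown with its PCR primers because it is the candidate gene for K transport that has a symbol. They are the study's own, in lower case because no base is singled out:
forward primer: tgccaggacaaaccatacagc
reverse primer: gccttccatagagcatgacca
LOC543226 had signals of 369, 371 and 154 in Sp. LK and 234, 204 and 234 in Sp. NK. Sp. LK replicates 1 and 2 were above the whole Sp. NK group and replicate 3 was below it, so the sides overlapped. The log2 difference was 0.31 (-0.38 to 0.99), with an unadjusted limma p of 0.352. Without Sp. LK replicate 3 it was 0.73, with an unadjusted limma p of 0.0136.

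Under uniform supply LOC543226 had signals of 738, 1055 and 699 in C. LK and 248, 285 and 158 in C. NK. Every C. LK array was above every C. NK array, and the log2 difference was 1.87 (1.19 to 2.55). The mean signal was 224 in Sp. NK and 230 in C. NK. It was 298 in Sp. LK and 831 in C. LK, the contrast by which the gene was chosen.

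The other potassium transport probe set has no gene symbol and is dimmer. It had signals of 109, 136 and 88.1 in Sp. LK and 105, 69.9 and 64.5 in Sp. NK. The sides overlapped through Sp. NK replicate 1, and the log2 difference was 0.48 (-0.19 to 1.16), beside 0.79 under uniform supply. The 2 contrasts differed by -0.30, with an unadjusted limma p of 0.507. For LOC543226 they differed by -1.56, with an unadjusted limma p of 0.00382 and an adjusted p of 0.98. The choice of both probe sets favours a negative value here, so these values are a description only.

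For the proton pump and the cation channel the whole interval lay within a 1.5-fold change between the sides. The plasma membrane proton pump ha1 (LOC543149) had signals of 24932, 21546 and 22544 in Sp. LK and 22969, 19125 and 20474 in Sp. NK. These overlapped, with a log2 difference of 0.14 (-0.13 to 0.41), and its other 2 probe sets gave 0.15 and 0.14. The vacuolar cation channel TPC1 (LOC543074) gave 0.0036 (-0.35 to 0.36). DMAS1 (LOC100037594), which builds the phytosiderophore with which grasses take up iron, gave -0.0055, 0.09 and 0.063 on its 3 probe sets. On all 3 its signal was highest in replicate 3 of either side, and on the dimmest of them it was 12899 there against 6294 and 6016 in the other Sp. LK arrays. Of the 7 brighter probe sets of ion transport and metal uptake, 0 passed the study thresholds in either direction, beside 0.659% of all brighter probe sets. Their median log2 difference was 0.09, beside 0.0090 for all brighter probe sets.

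**Figure D3:**
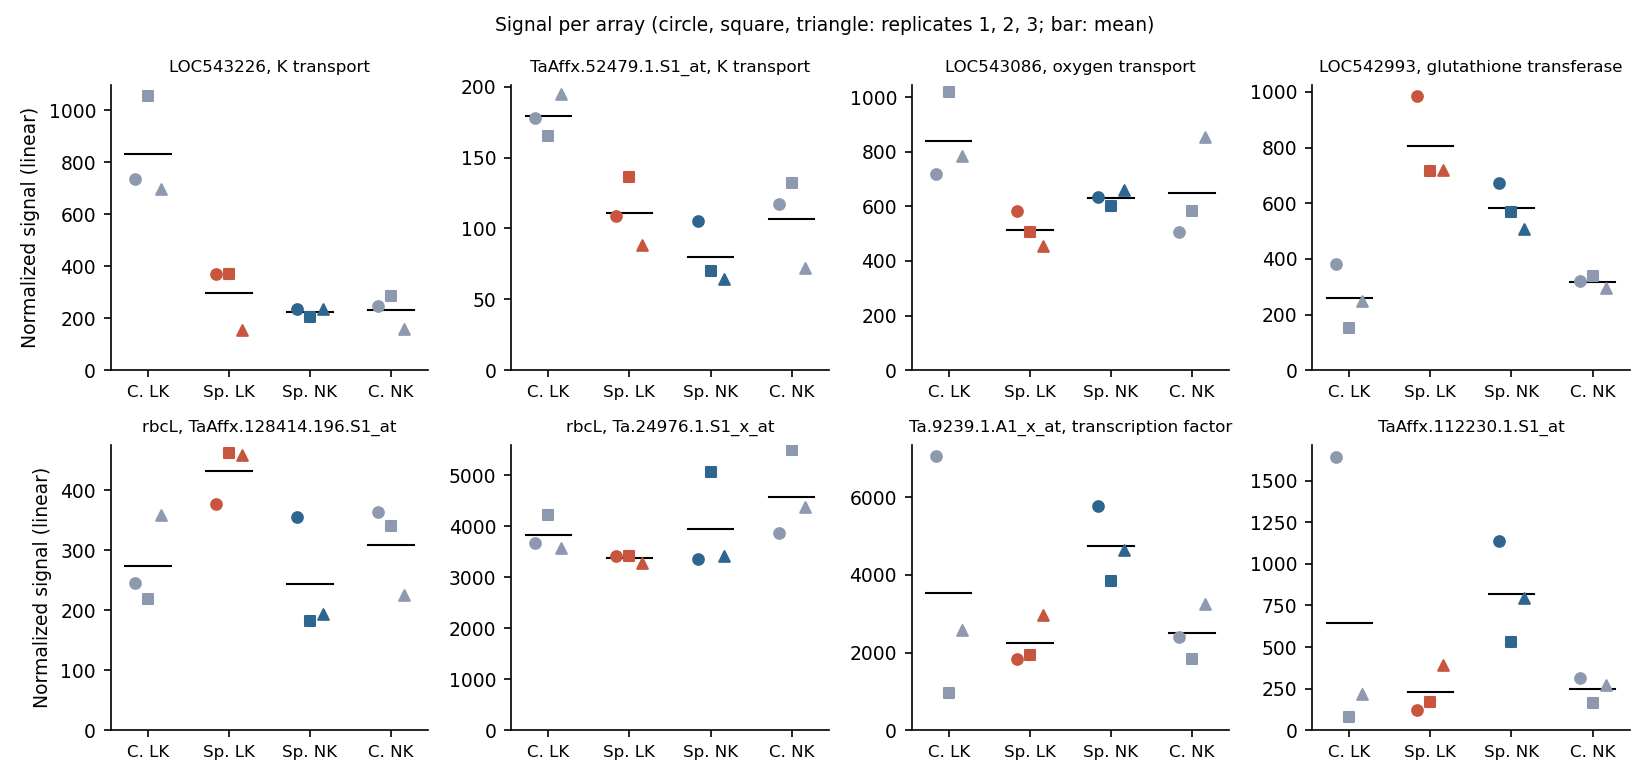
Linear normalized signal of 8 probe sets on each of the 12 arrays, by group, with circles, squares and triangles for replicates 1, 2 and 3 and a bar for the group mean. LOC543226 was high in C. LK alone (mean 831), while in Sp. LK it lay at 154 to 371, around the Sp. NK arrays at 204 to 234.

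Oxygen transport and respiration genes of the candidate list had estimated differences under 1.5-fold between the sides, but not all their intervals lay within it. The oxygen transport gene LOC543086 had signals of 583, 507 and 453 in Sp. LK and 635, 601 and 659 in Sp. NK. Every Sp. LK array was below every Sp. NK array. The log2 difference was -0.30 (-0.71 to 0.11), with an unadjusted limma p of 0.134. Under uniform supply the difference was 0.40. The study had chosen this gene as lower in Sp. LK against C. LK, which favours that order of the contrasts, so it is a description only. The cellular respiration probe set had signals of 752, 927 and 683 in Sp. LK and 703, 686 and 880 in Sp. NK, and gave 0.055 (-0.37 to 0.48). The respiratory gaseous exchange probe set gave -0.22 (-0.70 to 0.26), with overlapping sides.

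Glutathione transferases, which join glutathione to reactive and foreign compounds, had 4 probe sets in the study's list of genes higher in Sp. NK than in C. NK. Of the 4, 0 passed the thresholds between the sides, beside 0.659% of all brighter probe sets. LOC542993 had signals of 985, 717 and 718 in Sp. LK and 672, 568 and 508 in Sp. NK. Its sides did not overlap, and the log2 difference was 0.46 (-0.11 to 1.03), with an unadjusted limma p of 0.103. Both sides were above all arrays of uniform supply, which lay between 151 and 383, in part by the choice of the list. LOC542991 gave 0.16 (-0.27 to 0.59), LOC542992 gave 0.012 (-0.31 to 0.33) and the 1 probe set with no symbol gave 0.040 (-0.62 to 0.70). On these 3 the sides overlapped. The jasmonic acid pathway probe set had signals of 784, 1160 and 840 in Sp. LK and 1166, 1252 and 828 in Sp. NK, with a difference of -0.22 (-0.66 to 0.21).

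The largest shift of a candidate category was that of transcription factors listed by the study as higher in Sp. NK than in C. NK. That list was chosen on arrays that include those of Sp. NK, so a lower level in Sp. LK is not independent evidence of its direction. All 7 of its probe sets had a lower mean in Sp. LK, with log2 differences of -1.27 to -0.50 and a median of -0.73. In 6 of the 7 every Sp. LK array was below every Sp. NK array, beside 2.57% of all brighter probe sets. The brightest, a probe set with no symbol, had signals of 1826, 1928 and 2957 in Sp. LK and 5787, 3855 and 4633 in Sp. NK, a difference of -1.10 (-2.18 to -0.030). Another with no symbol had signals of 347, 534 and 525 in Sp. LK and 738, 871 and 796 in Sp. NK, and differed by -0.80 (-1.55 to -0.046). These 2 passed the study thresholds, and they were named after their values were seen. LOC100037599 had signals of 539, 596 and 790 in Sp. LK and 1240, 796 and 1173 in Sp. NK, with a difference of -0.73 (-1.58 to 0.12). LOC100037634 gave -0.71 and -0.54 on its 2 probe sets.

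C. LK replicate 1, an array outside the comparison, stood apart for these genes. In C. LK replicate 1 the signal of the brightest of the 7 was 7059, against 964 and 2576 in the other C. LK arrays, and that of LOC100037599 was 1919 against 438 and 651. The fit uses 1 estimate of the spread for all 4 groups. Without C. LK replicate 1, and also with only the 6 arrays of the split roots, 5 of the 7 probe sets were lower at the study thresholds. Over all brighter probe sets the lower ones also rose in number, from 75 (0.283%) to 129 (0.486%) without that array and to 141 (0.531%) with only the 6 arrays. The same array was more than 2-fold above both other C. LK arrays in 22 of the 75 lower brighter probe sets (29.3%), in 0 of the 100 higher ones and in 226 of all brighter ones (0.852%).

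Over the whole list of genes higher in Sp. NK than in C. NK, 34 of 37 probe sets were brighter. Its choice on arrays of Sp. NK favours lower values in Sp. LK, so its counts are a description only. Of the 34, 28 had a lower mean in Sp. LK, with a median log2 difference of -0.31, beside 0.0090 for all brighter probe sets. At the study thresholds 3 were lower and 0 higher, beside 0.283% and 0.377% of all brighter probe sets. Without C. LK replicate 1 or with only the split-root arrays 11 were lower, beside 0.486% and 0.531% of all brighter probe sets. The third was a probe set of the vesicle category, with signals of 135, 223 and 213 in Sp. LK and 492, 520 and 326 in Sp. NK and a difference of -1.23 (-2.38 to -0.086). A calcium binding probe set, named after its values were seen, had signals of 673, 679 and 821 in Sp. LK and 1633, 1261 and 1492 in Sp. NK, without overlap, and a difference of -1.01 (-2.19 to 0.17). The zinc finger gene WZF1 (LOC543182), under plastid in the list, had signals of 1805, 1928 and 2652 in Sp. LK and 3683, 2866 and 3471 in Sp. NK. Its sides did not overlap either, and the difference was -0.66 (-1.46 to 0.13), with an unadjusted limma p of 0.0951.

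The study's other list, of genes lower in Sp. LK against C. LK, was chosen for low values in Sp. LK, so a lower level there is again not independent. Of its 39 probe sets 33 were brighter, with a median log2 difference of -0.19 between the sides, beside 0.0090 for all brighter probe sets. At the study thresholds 2 were lower and 0 higher, beside 0.283% and 0.377%. These were a mitochondrion probe set at -0.61 and a vesicle probe set at -0.59. Its 4 transcription factor probe sets had a median of 0.0076 and a range of -0.13 to 0.089.

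**Figure D4:**
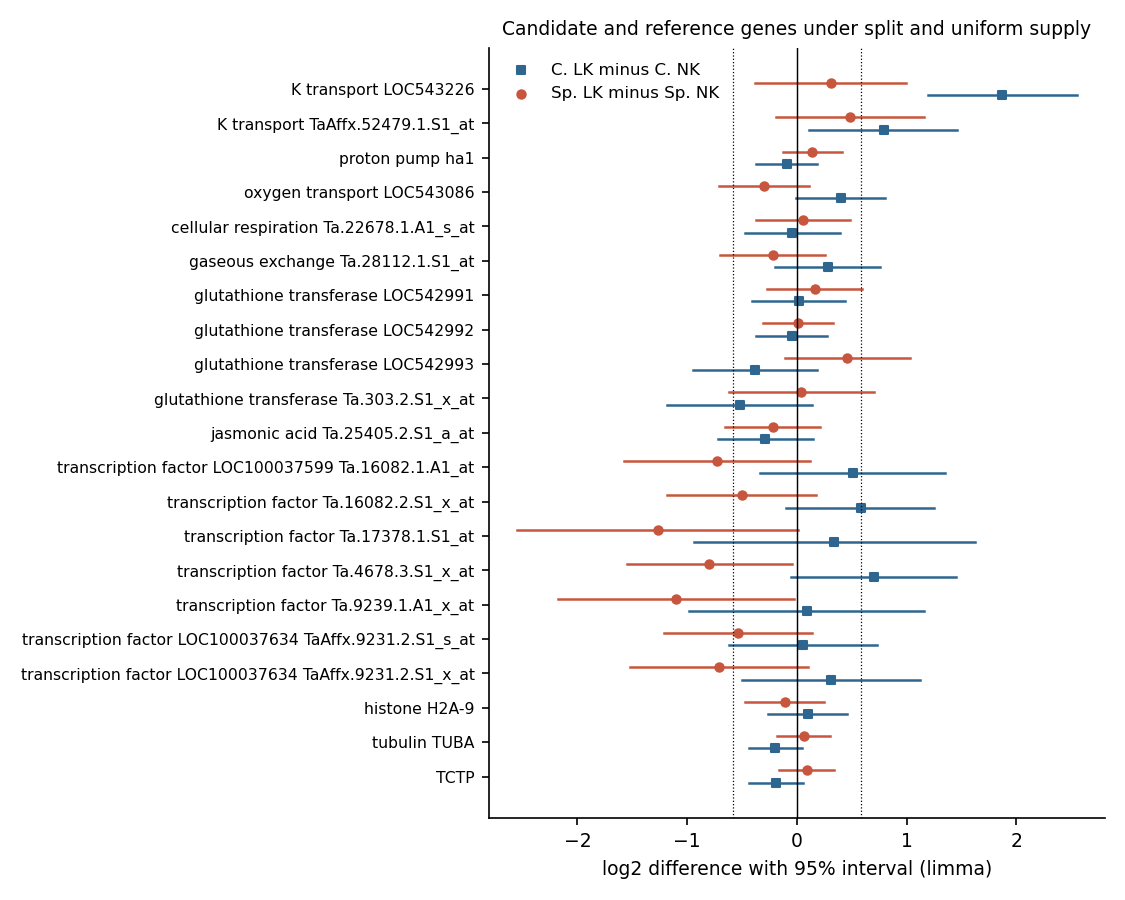
Log2 differences with 95% limma intervals for candidate and reference genes, between the sides of split roots (red circles) and between uniform supplies (blue squares), with dotted lines at a 1.5-fold change. LOC543226 is at 0.31 between the sides and at 1.87 between uniform supplies, and the 7 transcription factor probe sets lie at -1.27 to -0.50 between the sides.

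Named genes were few among the brighter differences and also among all brighter probe sets. The platform annotation gives 1 gene symbol to 793 brighter probe sets. At the study thresholds 2 of these were higher and 0 lower (0.252% in either direction, beside 0.659% of all brighter probe sets). The first was a probe set annotated to rbcL (LOC100049018), the plastid gene of the large subunit of Rubisco. It had signals of 377, 462 and 458 in Sp. LK and 356, 182 and 194 in Sp. NK. The sides did not overlap, although Sp. NK replicate 1 came close to Sp. LK replicate 1, and the log2 difference was 0.89 (0.29 to 1.48), with an unadjusted limma p of 0.00645. The other 4 brighter probe sets of rbcL did not share it. One of them gave -0.20 (-0.55 to 0.15), and the rest gave -0.30, -0.075 and 0.13. Of the 36 probe sets of the photosynthesis list given above, 2 were higher and 2 lower at the study thresholds. Over all probe sets the shares were 1.61% higher and 1.14% lower. Only the called rbcL probe set was brighter, and the other calls of the list were dim. The part of leaf or plastid RNA in these values was not tested. By the methods' t-test the p of the called rbcL probe set was 0.0514, which missed the threshold.

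The second was 1 of the 3 probe sets of LOC100037560. It had signals of 243, 326 and 218 in Sp. LK and 177, 137 and 154 in Sp. NK, without overlap, and a difference of 0.74 (0.098 to 1.38). Its unadjusted limma p was 0.0269, and it missed the thresholds without Sp. LK replicate 2 or without Sp. NK replicate 2 or 3. Its other 2 probe sets gave 0.22 and 0.31, which did not pass.

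The larger brighter differences belonged to probe sets with no symbol, but only 793 of all 26541 brighter probe sets have 1 symbol. The 100 higher ones had log2 differences of 0.59 to 1.37 (median 0.71), and the sides did not overlap in 73 of them. The 75 lower ones were at 0.58 to 1.96 below (median 0.74), with no overlap in 55. Over all brighter probe sets the sides did not overlap in 5.40%, and in 2.57% with Sp. LK the lower side. The called probe sets were chosen for a low p and a large change on these arrays. That choice favours sides without overlap, so these counts are a description only. The largest fall had signals of 122, 169 and 394 in Sp. LK and 1136, 528 and 796 in Sp. NK, or -1.96 on the log2 scale (-3.66 to -0.25). The next had signals of 121, 81.6 and 137 in Sp. LK and 583, 196 and 326 in Sp. NK, or -1.59 (-3.13 to -0.056). In both, Sp. NK replicate 1 was the highest of the 6 arrays, and C. LK replicate 1 was higher still at 1640 and 1048. Both calls were lost by leaving out single arrays. The first missed the threshold without Sp. LK replicate 1 (-1.60, unadjusted limma p of 0.0969) or 2 and without Sp. NK replicate 1 or 3. The other missed it without any Sp. LK array, without Sp. NK replicate 1 (-1.19, unadjusted limma p of 0.158) or 3, and without C. NK replicate 1 or 3.

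The largest rise had signals of 147, 214 and 141 in Sp. LK and 16.5, 118 and 132 in Sp. NK, a difference of 1.37 (0.095 to 2.64). Without Sp. NK replicate 1 the difference was 0.40, and the call was also lost without any of the Sp. LK arrays. The next without overlap had signals of 327, 347 and 189 in Sp. LK and 182, 57.7 and 139 in Sp. NK, a difference of 1.29 (0.23 to 2.35). Without Sp. NK replicate 2 it was 0.80, and the call was lost there and without Sp. LK replicate 1 or 2. In 42 of the 75 lower probe sets Sp. LK replicate 3 was the Sp. LK array nearest to Sp. NK, and in 42 of the 100 higher ones Sp. NK replicate 1 was the Sp. NK array nearest to Sp. LK. Without Sp. LK replicate 3 the brighter lower ones numbered 179, and without Sp. NK replicate 1 the brighter higher ones numbered 187.

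Groups of household genes had small median differences between the sides. Core histones, the proteins that package DNA, had 17 brighter probe sets with log2 differences of -0.16 to 0.10 (median -0.069). Of these, 0 passed the thresholds, beside 0.659% of all brighter probe sets. A probe set of H2A-9 had signals of 18279, 13522 and 21021 in Sp. LK and 18891, 17040 and 20291 in Sp. NK. Sp. LK replicate 2 was the lowest of the 6 arrays for 15 of these probe sets, so their values are not independent of each other. The 10 tubulin probe sets had a median of 0.028 and a range of -0.35 to 0.072. The brighter of the 2 TUBA probe sets gave 0.061 (-0.18 to 0.30), and the other gave -0.35 with a wide interval of -2.38 to 1.68. The 11 brighter probe sets of translation and protein turnover had a median of 0.024, with TCTP, a growth-related protein, at 0.090 (-0.16 to 0.34) and the elongation factor TEF1 at 0.024 (-0.21 to 0.26). SAHH, which recycles the by-product of methylation, gave -0.0083 (-0.30 to 0.28).

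Stress and sugar genes also had no call among their brighter probe sets, beside 0.659% of all brighter probe sets. Defence proteins had 7 brighter probe sets with a median of 0.046 and 0 calls, and PR5, a pathogenesis-related protein, gave 0.046 with an interval of -1.93 to 2.02, too wide to read. Peroxide and glutathione enzymes had 6 brighter probe sets with a median of -0.13, and 0 calls. The 3 of GSTZ1 gave 0.15, -0.11 and -0.14, and the 2 of PER1 gave -0.18 and -0.13. The dehydrin Rab15 (LOC543293), a protein that accumulates on water loss, had signals of 194, 114 and 116 in Sp. LK and 224, 242 and 160 in Sp. NK. The sides overlapped through Sp. LK replicate 1, and the difference was -0.59 (-1.28 to 0.10). It passed the thresholds without that array, at -0.84, and without Sp. NK replicate 3, at -0.77. A second Rab15 probe set just under the brightness limit had signals of 102, 79.8 and 148 in Sp. LK and 197, 173 and 212 in Sp. NK, without overlap, and gave -0.86 (-1.92 to 0.20). The beta-glucosidase gene GLU1A (LOC780595) had signals of 19369, 6842 and 7907 in Sp. LK and 9283, 18571 and 16970 in Sp. NK. Sp. LK replicate 1 was the highest of the 6 arrays, and the difference was -0.49 (-1.39 to 0.40). Without that array it was -0.96, at an unadjusted limma p of 0.0272. In bulk roots, fewer cells of a type and less RNA per cell cannot be told apart for any of these genes.

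Few probe sets passed the thresholds both between the sides and under uniform supply. Of the 100 brighter probe sets higher in Sp. LK than Sp. NK, 4 were also higher under uniform low K and 2 lower. Among all brighter probe sets, 0.923% were higher and 0.791% lower under uniform low K. The 4 were 1.63% of the 245 higher there, beside 0.377% of all brighter probe sets that were higher between the sides. Of the 75 lower ones, 1 was also lower (1.33%, beside the 0.791%) and 1 was higher (1.33%, beside the 0.923%). No array is shared between these contrasts. In 65 brighter probe sets (0.245%) the groups did not overlap in either contrast and the directions were opposite, and in 62 (0.234%) the directions were the same, where 5.40% and 9.73% did not overlap in the single contrasts. Across the 26541 brighter probe sets the 2 differences correlated at r = -0.154, and at -0.197 over those with a mean log2 signal of 8 or more. The value rests on single arrays, since it was 0.0542 without Sp. LK replicate 2 and 0.0826 without Sp. NK replicate 3. When the difference between both contrasts was itself tested, limma called 0 probe sets after adjustment, with 815 brighter ones (3.07%) at an unadjusted p under 0.05.

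**Figure D5:**
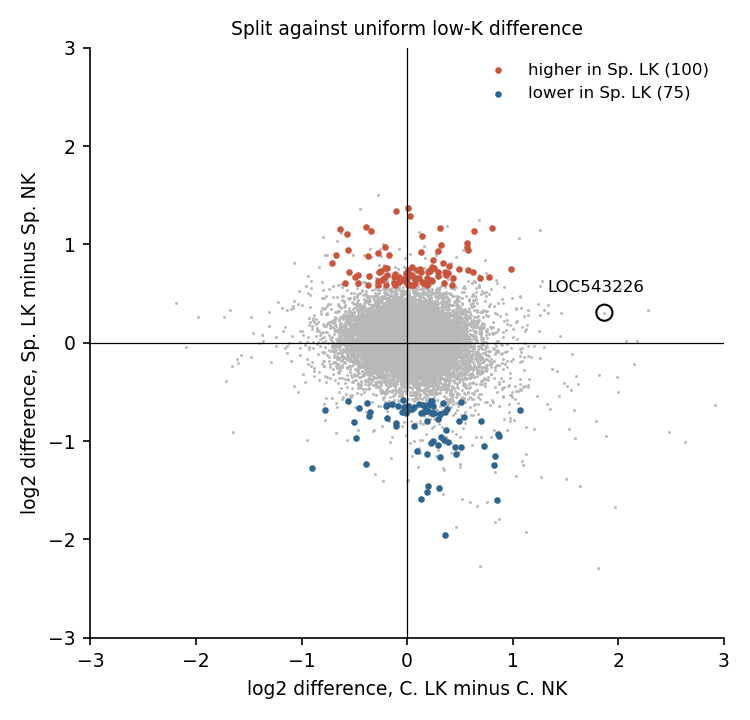
Log2 difference between the sides of split roots (y axis) against that between uniform supplies (x axis) for the 26541 brighter probe sets, with the 100 higher (red) and 75 lower (blue) in Sp. LK marked and LOC543226 circled. The cloud has an r of -0.154 and the marked probe sets lie on both sides of 0 on the x axis.

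Set against the uniform supply of the same K level, the 2 sides gave these counts of brighter probe sets. Sp. LK had 696 higher (2.62%) and 370 lower (1.39%) than C. LK, and Sp. NK had 236 higher (0.889%) and 121 lower (0.456%) than C. NK. These contrasts share arrays with the comparison of the sides, so no overlap is given.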

How the data were processed

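The authors hybridised root RNA to Affymetrix Wheat Genome Arrays and normalized the scans with MAS 5.0. The deposited values are log2 signals, 1 per probe set and array. Their linear trimmed mean was 500.1 on every array. No further scaling was applied. No detection calls were used. The 175 AFFX and RPTR controls were left out of 61290 probe sets.

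All 12 arrays entered 1 fit in R 4.3.3 with limma 3.58.1 (group means, eBayes with a variance trend, 8 residual degrees of freedom), without a block, and p-values were adjusted by Benjamini-Hochberg over 61115 probe sets. The script was tested on simulated data. With 3 arrays against 3, no exact permutation test was run.

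Named genes were the 15 largest changes each way with 1 symbol (2 each way without a symbol). These had a mean log2 signal of 7 or more, passed the study thresholds and had no overlap. Adjusted calls and 6 candidate categories were named at any brightness. So were, of each gene list, the member with the smallest p and the brightest, and the 5 brightest genes with a symbol. Probe sets with no symbol are described by category or rank, not by ID. Other names were chosen after their values were seen. Members and lists were chosen with earlier results of these data known. The platform annotation names 1273 probe sets with 1 symbol (771 symbols), and 1272 matched the IWGSC CS RefSeq v2.1 gene table. Of 18 lists written as name patterns, 8 matched a gene, so 12 more were written from the annotation's names. Alternatives were a replicate block, 6 arrays only, no trend, the methods' t-test, quantile normalization, median centring, a floor at 32, another brightness limit and leaving out each array.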

Additional observations from a re-analysis of the deposited data

How the results depend on the processing

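Adjusted calls stayed at 0 between the sides in every alternative but a floor that set signals under 32 to 32, which gave 10 between the sides and 4 for the difference between split and uniform supply. All 10 have no gene symbol and lie at or below 58.4 on all 6 split-root arrays, with one side at or near the floor, where the spread becomes small by construction. The floor also left 515 higher, 273 lower and 41 brighter lower probe sets. Brighter lower probe sets numbered 43 with no variance trend, 141 with only the 6 arrays, 169 with these and a replicate block, and 35 at a mean log2 signal of 8 or more. Brighter higher ones numbered 53 by the methods' t-test and 28 at 8 or more. Leaving out each array gave 737 to 1249 higher, 569 to 989 lower, 88 to 187 brighter higher and 66 to 179 brighter lower probe sets, 0 to 0 adjusted calls in both tests, and r of -0.282 to 0.0826. Brighter lower probe sets were 142 without Sp. LK replicate 1 and 129 without C. LK replicate 1. The cause of these moves was not tested. Deviations of same-numbered Sp. LK and Sp. NK arrays correlated at -0.2084, 0.2679 and 0.2541, and those of differently numbered arrays at -0.4694 to 0.2402. The sources do not state a pairing, so the numbers were not taken to pair the arrays in the main fit. With the replicate block over 12 arrays, 978 were higher and 756 lower, 104 and 101 of the brighter, and 0 were called after adjustment.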

Other observations

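Of 480 dimmer probe sets with 1 gene symbol, 12 were higher and 12 lower in Sp. LK than in Sp. NK at the study thresholds, beside 2.55% and 1.80% of all dimmer ones. In 11 of these 24 all 6 split-root arrays were under a signal of 32, and in 3 any array exceeded 100. The clearest in signal, chosen after its values were seen, was LOC543369, at 188, 155 and 133 in Sp. LK and 21.8, 16.8 and 54.3 in Sp. NK, a log2 difference of 2.54 with an unadjusted limma p of 0.0121. A probe set of PsbP (LOC543290), a photosystem protein, was at 34.6, 4.68 and 25.2 in Sp. LK and 106, 62.5 and 39.6 in Sp. NK, while its other dim probe set gave -0.43 (-1.77 to 0.91). Prx1 (LOC606328), a peroxiredoxin, was at 1.81, 0.835 and 0.953 in Sp. LK and 16.4, 8.56 and 20.2 in Sp. NK, a log2 difference of -3.65 that is 0 once signals under 32 are set to 32.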
